A study of Mus musculus with 10 samples.

Results

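Tight junctions seal the space between neighbouring epithelial cells and hold their apical and basal membranes apart. Claudins are the membrane proteins that form the strands of the junction, and ZO proteins are cytoplasmic scaffolds that bind the tails of claudins and tie them to actin. In the testis such junctions are formed by Sertoli cells, where they make up part of the blood-testis barrier that separates meiotic and later germ cells from the blood. Cldn4 encodes a claudin of many epithelia that is also a receptor of a Clostridium enterotoxin, Cldn22 encodes another member of the claudin family, and Tjp3 encodes a ZO scaffold protein.

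The regions at Cldn4, Cldn22 and Tjp3 were 3 of 389 distinct differentially methylated regions (DMRs) in F1 sperm from the study's additional experiment. Each of the 3 regions was listed once in the 465 rows of the DMR table. They were selected on the readout itself, by being listed near the transcription start site (TSS) of a tight junction gene and by their sign and size. Their differences are therefore given as a description, with no test. Methylation was measured by reduced representation bisulfite sequencing (RRBS), which reads cytosines in short restriction fragments. The donors were C3H/HeN males of the F1 generation, 5 whose mothers were control dams and 5 whose mothers were given sodium arsenite in the drinking water during gestation, so that these males were exposed in utero. The labels give an age of 15 to 17 weeks for both groups. The additional experiment was conducted independently of the study's main one, whose DMRs were not analysed here. In the study's description of the additional experiment the sperm was pressed out of the cauda epididymis and collected by centrifugation. The table holds 0 columns of single mice, so the spread between mice, the coverage and the methylation level of each group were not analysed here, and the sperm label was not checked against the methylation of any locus.

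The sequences of the regions are shown because the number and placing of CpG sites set what RRBS could read in each of them. They are GRCm38 (mm10) sequence from the RefSeq assembly, written along the gene, with each CpG site in capitals. The sequence of the C3H/HeN donors themselves was not analysed here, so single sites can differ from those of the reference. The Cldn4 and Tjp3 regions are given whole with 1 base added on each side, so that the outer CpG sites are complete. Of the Cldn22 region a stretch of 30 bases in the coding sequence is given, which holds 3 of its 5 CpG sites. This stretch was picked as the one with the most CpG sites.
Cldn4 region, chr5:134947141-134947281, - strand: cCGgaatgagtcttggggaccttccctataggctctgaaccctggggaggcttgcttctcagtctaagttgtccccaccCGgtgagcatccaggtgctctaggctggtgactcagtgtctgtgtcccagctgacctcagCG
Cldn22 region, chr8:47825113-47825142, + strand: ctCGagtcactatgcagtggCGggacctCG
Tjp3 region, chr10:81289993-81290251, - strand: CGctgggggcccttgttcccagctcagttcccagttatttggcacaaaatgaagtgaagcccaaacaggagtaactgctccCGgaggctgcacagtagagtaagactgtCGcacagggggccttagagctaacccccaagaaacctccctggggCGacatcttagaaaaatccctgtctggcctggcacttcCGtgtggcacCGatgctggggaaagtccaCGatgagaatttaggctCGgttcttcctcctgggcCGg
In the Cldn4 sequence the CpG sites stand at both ends and once in between, with long runs without CpG. In the Tjp3 sequence they become denser towards the end that lies deeper in the intron. The close CpG sites of the Cldn22 stretch follow from how it was picked. Over the whole Cldn22 region the sites stand at 618, 633, 651, 659 and 713 bases after the TSS.

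The Cldn4 and Cldn22 regions had positive differences and the Tjp3 region a negative one. The difference was 16.6 percentage points of methylation at Cldn4, 13.4 points at Cldn22 and -15.2 points at Tjp3. The table does not say which group was subtracted from which, so the signs show only that the claudin regions and the scaffold region differed in opposite directions between the control and arsenic groups. Of all 389 DMRs, 17.2% were negative, so the sign at Tjp3 was the less frequent one in the table. The study reports that single cytosines less methylated in the arsenic group predominated in this experiment as well. It does not give the sign convention of the DMRs, so a positive difference is not to be read as more methylation in the arsenic group. By size the order was Cldn4, Tjp3, Cldn22. Without values per mouse, it was not tested whether neighbours in this order differ beyond the spread between animals.

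The share of cytosines called as differentially methylated (DMCs) followed another order than the size of the difference. The Cldn4 region rested on 3 counted CpG cytosines, of which 1 was a DMC (33.3%). The Cldn22 region rested on 5, of which 2 were DMCs (40%). The Tjp3 region rested on 8, of which 5 were DMCs (62.5%). Thus the region with the largest difference of the 3 had the fewest counted and the fewest called cytosines. The column of CpGs counts cytosines of either strand. The reference holds 5 CpG cytosines on both strands in the Cldn4 region, 10 in the Cldn22 region and 17 in the Tjp3 region, so only part of them was counted in each.

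The DMR at Cldn4 lay in its promoter, upstream of the gene. It covered chr5:134947142-134947280, a span of 139 bp from the first to the last cytosine. Cldn4 (NM_009903) is read from the minus strand in a single exon, and the region ran from base -346 to base -208 relative to its TSS and ended 397 bases before its start codon. RefSeq places no gene body over it. The nearest gene other than Cldn4 was Mettl27, which encodes a methyltransferase-like protein, at 4505 bp. Other claudin genes of the same stretch of chromosome 5 were farther away, Cldn13 at 31612 bp and Cldn3, which encodes a claudin also described in the blood-testis barrier, at 38934 bp. Neither was assigned a DMR, as held for most genes. Cldn3 had 8 in silico fragments that RRBS could read near its TSS, whereas the fragments of Cldn13 were not analysed here.

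The DMR at Cldn22 lay in the gene itself, at the end of the coding sequence. It covered chr8:47825100-47825196, a span of 97 bp. Cldn22 (NM_029383) is read from the plus strand in a single exon of 994 bases, and the region lay 618 to 714 bases after its TSS. It held 92 coding bases, from codon 191 of the 221 codons with the stop codon, and 5 bases of the 3′ untranslated region (UTR). In claudins this end of the protein is the cytoplasmic tail, which in many of them carries the binding site for ZO scaffolds. Whether the Cldn22 protein has such a site was not analysed here. Cldn24, a neighbouring claudin gene on the same strand, ended 2295 bp away and had no DMR. On the other strand, the RefSeq annotation of Wwc2, which encodes a WW domain protein, ended 886 bp away, whereas a GENCODE transcript of Wwc2 extended over the whole of Cldn22 with its 3′ UTR. The region was therefore exonic for Cldn22 in both annotations and for Wwc2 in GENCODE alone.

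The DMR at Tjp3 lay in its first intron. It covered chr10:81289994-81290250, a span of 257 bp. Tjp3 is read from the minus strand, and in the transcript named in the table (NM_013769, 21 exons) the region lay 1017 to 1273 bases after the TSS. The first intron is 7308 bases long, and the region began 798 bases after exon 1 and ended 6255 bases before exon 2. Its place depended on the transcript. It was in intron 1 of NM_001282095, whose TSS lies farther upstream, and in intron 2 of the predicted XM_006513708 with 22 exons. For NM_001282096, which starts inside the gene, it was upstream, from base -4469 to base -4213 relative to the TSS. The nearest other gene was Pip5k1c, which encodes a phosphatidylinositol phosphate kinase, at 2585 bp.

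**Figure D1:**
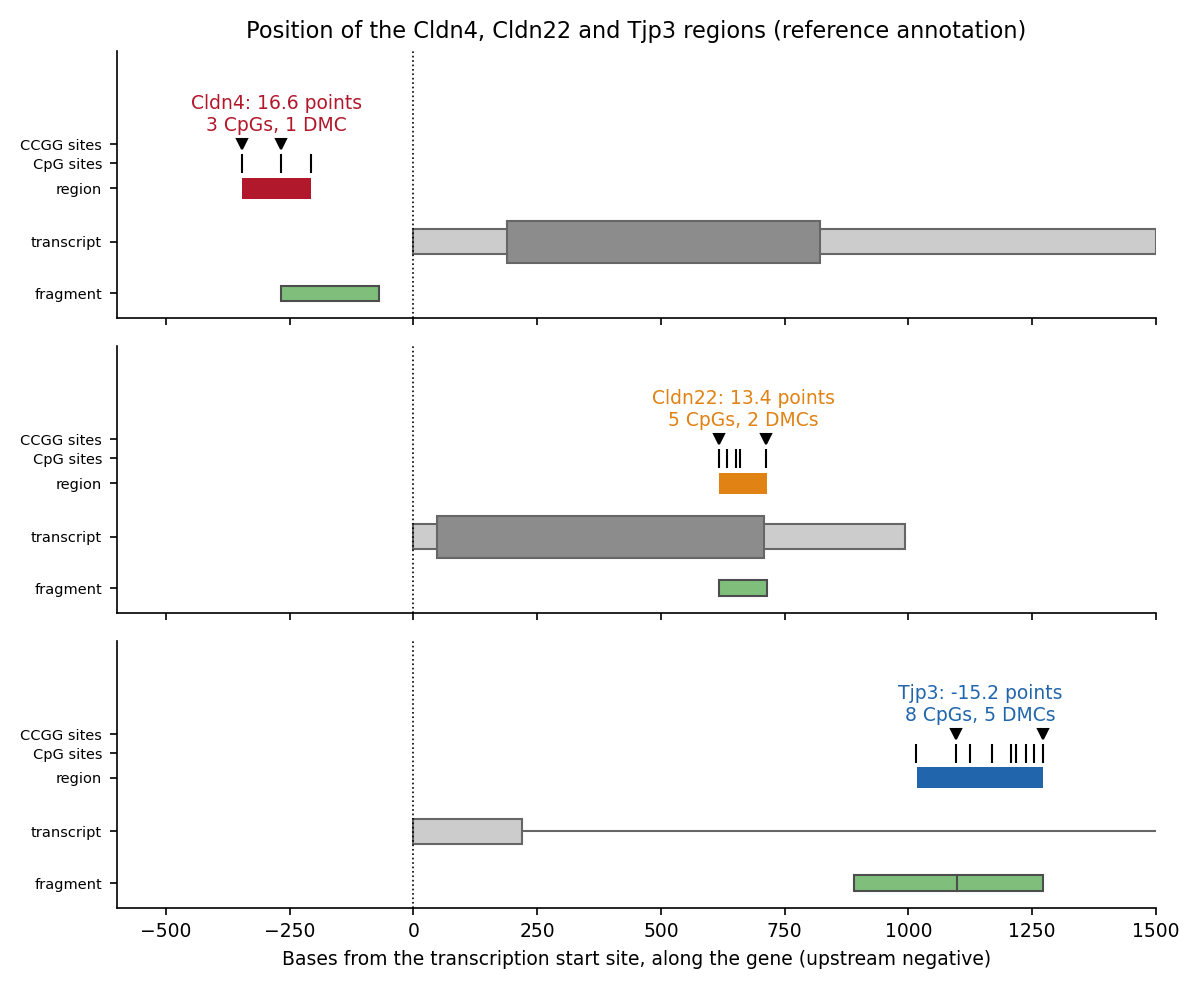
Position of the 3 regions along their genes, in bases from the TSS of the transcript named in the table (upstream negative). Light boxes are exons, dark boxes coding sequence, coloured bars the regions, ticks CpG sites, triangles CCGG sites and green boxes the in silico fragments of 40 to 220 bp with 3 or more CpG sites that touch the region. The Cldn4 region is upstream of the gene, the Cldn22 region at the end of its coding sequence and the Tjp3 region in the first intron.

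The sign of the distance in the table follows the chromosome and not the direction of the gene. It was -208 for Cldn4, which is upstream, -618 for Cldn22, which is downstream, and 1017 for Tjp3, which is downstream. The positions above were therefore recomputed along each gene.

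No other DMR was listed close to any of the 3 regions. The nearest other DMR was 8.25 Mb from the Cldn4 region (10.6 points, among 19 DMRs of chromosome 5) and 12.4 Mb from the Cldn22 region (14.6 points, among 23 of chromosome 8). It was 995976 bp from the Tjp3 region, at Rps15, which encodes a ribosomal protein (-11.6 points, among 30 of chromosome 10).

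Within 2000 bp of a TSS, 31 distinct DMRs were listed, 23 positive and 8 negative (25.8% negative). The 3 tight junction regions thus comprised 2 of the 23 positive and 1 of the 8 negative DMRs. Because the sign took part in the choice of members, nothing is read from their split. The other 28 regions had sizes of 10.1 to 17.4 points with a median of 11.5 points. The study's methods set a lower limit on the difference of a DMR, and none of all 389 was smaller than 10.0 points. Sizes, medians and ranks therefore describe only differences above that limit.

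By size, the Cldn4 region ranked 2 of 31, the Tjp3 region 4 and the Cldn22 region 9. Among positive DMRs the next above Cldn4 was at Olfr281, an olfactory receptor gene, with 17.4 points, and the next below was at Tnni3, the gene of cardiac troponin I, with 16.1 points. These lay 0.757 points above and 0.466 points below it. The neighbours of Cldn22 were at Fam187a (13.6 points) and Tmem88 (12.8 points), a gene of a membrane protein. These lay 0.253 points above and 0.529 points below it. Tjp3 had the largest size of the 8 negative regions, and the next was at Crybb1, a lens crystallin gene, with -12.2 points. The other 7 negative regions lay between -12.2 and -11.0 points, so Tjp3 was 3.02 points beyond the next.

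**Figure D2:**
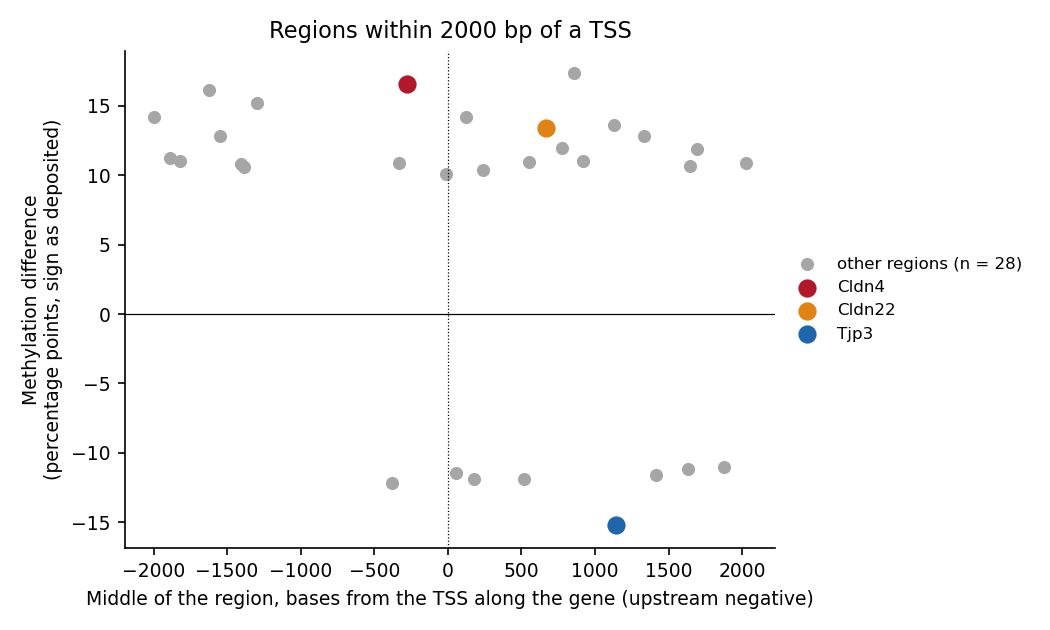
Methylation difference (percentage points, sign as deposited) of the 31 DMRs within 2000 bp of a TSS against the middle of the region in bases from the TSS along the gene. Grey points are the 28 other regions. Cldn4 (16.6 points) and Cldn22 (13.4 points) are among the positive points, and Tjp3 (-15.2 points) is the lowest point.

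At the border of the 2000 bp window, the last regions inside were at Serpinb10 (1955 bp, 14.2 points) and 0610040F04Rik (1974 bp, 10.9 points). The first outside were at Tnnc2 (2018 bp, 14.7 points) and 1700096K18Rik (2372 bp, 12.9 points). The 3 tight junction regions, at 208, 618 and 1017 bp, lay well inside it.

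The numbers of DMCs and counted CpGs differed among the 31 regions. Cytosines of a region were read in the same mice and can lie on the same fragment, so they are not independent evidence. Of the 31 regions, 18 held 1 DMC, 7 held 2, 1 held 3, 1 held 4 and 4 held 5. The Cldn4 region belonged to the 18 and the Tjp3 region to the 4. In the other 28 regions the share of DMCs among counted CpGs ran from 8.33% to 57.1% with a median of 22.5%. The 62.5% at Tjp3 was above all of them, and the 40% at Cldn22 was above their median. The 33.3% at Cldn4 is the lowest share possible with 3 counted CpGs, since a DMR needed at least 1 DMC. Cldn4 shared the lowest number of counted CpGs, 3, with 4 other regions. All 7 other negative regions held 1 or 2 DMCs.

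**Figure D3:**
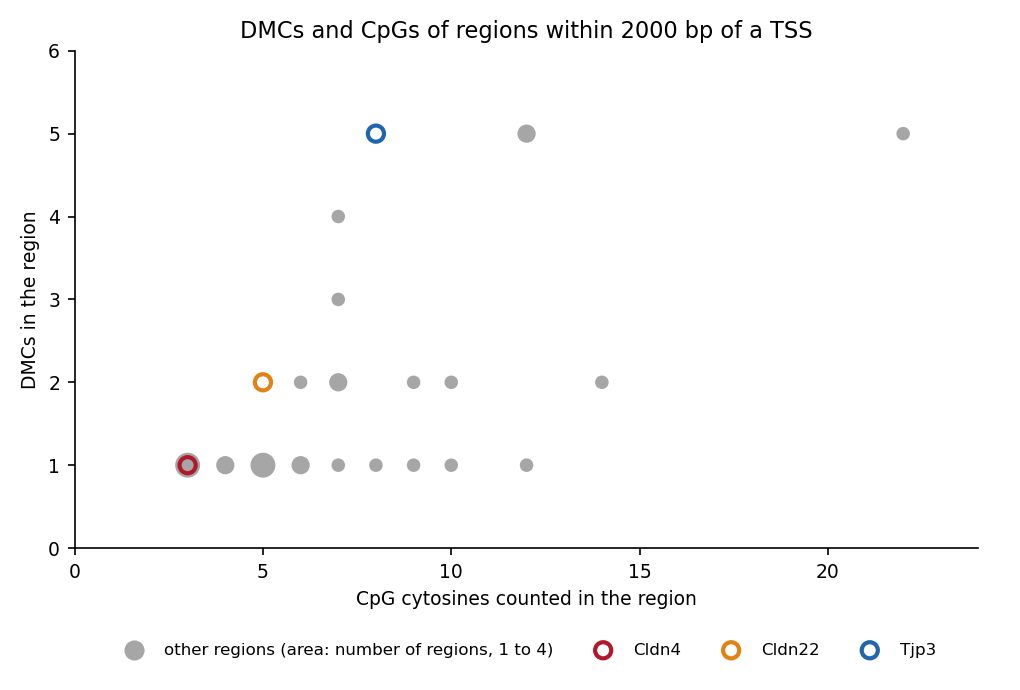
DMCs against counted CpG cytosines for the 31 DMRs within 2000 bp of a TSS, with the area of grey points giving the number of other regions at that place. Tjp3 (5 DMCs of 8 CpGs) lies to the left of the other regions with 5 DMCs, and Cldn4 (1 of 3) is at the lower left corner.

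The reference sequence, which the choice of members did not use, differed among the 3 regions more in CpG density than in the share of G and C bases. In the Cldn4 region 3 CpG sites in 139 bp gave 2.16 sites per 100 bp, the lowest density of the 31 regions. The ratio of observed to expected CpG sites was 0.254 there, also the lowest of the 31. In the Cldn22 region 5 sites in 97 bp gave 5.15 per 100 bp, rank 8 from the highest, with a ratio of 0.583. In the Tjp3 region 9 sites in 257 bp gave 3.50 per 100 bp, rank 19, with a ratio of 0.446. The other 28 regions ran from 2.17 to 14.3 sites per 100 bp (median 4.13), and their ratio ran from 0.310 to 1.41 (median 0.502).

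The order of the densities rested on the bounds of the DMRs. Widened by 100 bp on each side, the regions had 2.06 sites per 100 bp at Cldn4, 2.36 at Cldn22 and 3.06 at Tjp3. Tjp3 was then the densest, and Cldn22 was close to Cldn4.

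The share of G and C bases was alike in the 3 regions, 58.3% at Cldn4, 59.8% at Cldn22 and 56.0% at Tjp3. The other 28 regions ran from 44.4% to 81.4% with a median of 57.3%. None of the 3 regions held a repeat-masked base (18 of the 31 regions held 0), and no stretch of 30 bases in them had an exact copy elsewhere in the reference, as in 23 of the 31.

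**Figure D4:**
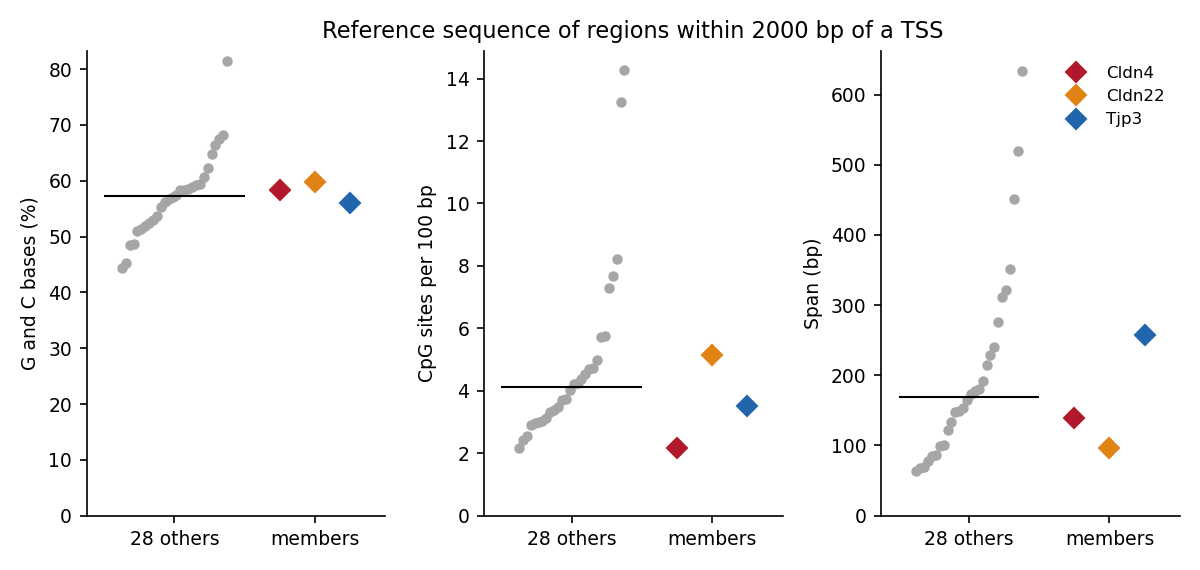
G and C share (%), CpG sites per 100 bp and span (bp) of the 28 other DMRs within 2000 bp of a TSS (grey points, line at the median) and of the Cldn4, Cldn22 and Tjp3 regions (diamonds). The Cldn4 region has 2.16 CpG sites per 100 bp, below every grey point, while the G and C share of all 3 is near the grey median of 57.3%.

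RRBS can read only fragments that the restriction enzyme leaves. The enzyme is not named in the sources used here, and CCGG, the site of the commonly used MspI, was taken for it. Each region held 2 CCGG sites. Of the 31 DMRs near a TSS, 6 began and ended in such a site, as did 75 of all 389 DMRs. The Cldn22 region was exactly 1 in silico fragment, of 97 bp with 5 CpG sites, from one CCGG site to the next. It was the only fragment of 40 to 220 bp with 3 or more CpG sites within 2000 bp of the Cldn22 TSS, among 6 fragments there. The table counted 5 CpG cytosines on it, and no other part of the Cldn22 surroundings lay on such a fragment.

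At Cldn4 the in silico digest left 14 fragments within 2000 bp of the TSS, of which 7 had this length and CpG number. They held 40 CpG sites, and 1 of them touched the region. That fragment of 200 bp with 6 CpG sites shared 61 bases with the region. The remainder of the region was a fragment of 80 bp with 2 CpG sites, both in the CCGG sites at its ends. At Tjp3, 9 of 19 fragments had the length and CpG number and held 90 CpG sites. The region lay on 2 of them, of 177 bp with 8 CpG sites and of 209 bp with 4. Cldn4 and Tjp3 therefore had further fragments of this length and CpG number outside the DMR, and Cldn22 had none. Whether those fragments were covered in all 10 samples was not analysed here.

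The promoter windows of the 3 genes, 250 bases before to 50 after each TSS in RefSeq, held 3 to 9 CpG sites. Over 32851 windows of mouse genes the lower quartile was 3 CpG sites, the median 7 and the upper quartile 20. The Cldn4 window held 9 sites, more than 54.2% of the windows. The Cldn22 window held 7, more than 47.9%. Tjp3 had 1 window with 9 sites, at the TSS used in the table, and 1 with 3 sites, at the upstream TSS, more than 23.3% of the windows. Only the Cldn4 window overlapped its region, with 43 bases. Its part upstream of the TSS is shown because the DMR reaches into it from the left.
Cldn4 promoter, chr5:134946935-134947184, - strand: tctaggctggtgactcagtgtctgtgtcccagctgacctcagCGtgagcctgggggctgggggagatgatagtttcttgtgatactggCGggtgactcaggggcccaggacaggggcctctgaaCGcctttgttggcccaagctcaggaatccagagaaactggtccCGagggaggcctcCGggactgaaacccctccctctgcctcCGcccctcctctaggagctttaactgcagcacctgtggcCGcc
The DMR ends at the first of the 7 CpG sites in capitals, 208 bases before the TSS. The other 6 sites stand between the DMR and the TSS.

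Short motifs were counted in these windows on both strands. GGGCGG, the core of the GC box bound by Sp1-type factors, had 2 matches in the Cldn4 promoter, at bases -44 and -5 from the TSS and both on the opposite strand, and 0 in those of Cldn22 and Tjp3. It was present in 35.7% of all promoter windows. CACCTG, an E-box bound by Snail and Zeb repressors of epithelial genes, had 2 matches in the Cldn4 promoter, at bases -14 and 11 from the TSS, 1 in each Tjp3 promoter and 0 in that of Cldn22. It was present in 20.2% of promoter windows. CACGTG had 1 match, at Tjp3, and was present in 7.15%. Both E-boxes are special cases of CANNTG, which 72.3% of windows held. TGACNNNGC, the core of the antioxidant response element, had 0 matches in the 3 genes and was present in 12.4%.

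In windows of 300 bp around the middle of each DMR, the Cldn4 window held 1 CACCTG match, at base -257 and inside the DMR, where the printed sequence reads caggtg on the gene's strand. The Cldn22 window held 1, at 520 bases after the TSS and outside the DMR, and the Tjp3 window held 0. Such a match was present in 54.8% of the windows of the 31 DMRs near a TSS and in 29.6% of those of all 389 DMRs. A match is a run of letters and not a shown binding site.

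The other genes of the tight junction were read from a list of 66 names in 6 roles, of which 63 were found in RefSeq. Of these, 41 had at least 1 fragment of 40 to 220 bp with 3 or more CpG sites within 2000 bp of a TSS, and 15 had no promoter window in the reference table and were not analysed for fragments. A DMR within 2000 bp of the TSS was listed for 3 of the 41 genes (7.32%), and over all genes for 22 of 16448 (0.134%). Since the members were chosen for being listed, nothing is read from this difference. The 16448 genes did not include every gene among the 31 DMRs near a TSS. The 3 genes were Cldn4, Cldn22 and Tjp3 themselves, and none of the other 38 had a DMR. At any distance, none of the other 60 genes was assigned one. Of these, 45 had a promoter window. Over all 27025 genes with such a window, 284 were assigned a DMR (1.05%). The genes with a DMR are set aside here, and the list was chosen with earlier results known. Nothing is therefore read from the count of 0 among the 45.

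By role, the list held 28 claudins, of which 18 had such a fragment and 2 a DMR. Of the ZO scaffolds, 2 of 3 had a fragment and 1, Tjp3, a DMR. Tjp1, which encodes the founding ZO protein, had 9 fragments and no DMR. The MARVEL proteins, with occludin (Ocln, 9 fragments), had 2 genes with a fragment and 0 with a DMR. The angulins of tricellular contacts had 3 and 0, the junctional adhesion molecules 1 and 0, and the proteins of the cytoplasmic plaque 15 and 0. Among claudins described in the testis and in endothelial barriers, Cldn3 had 8 fragments, Cldn5 had 6 and Cldn11, the main claudin of Sertoli cells, had 4, and none had a DMR. Over all genes the share was 0.134% (22 of 16448), at which a count of 0 is the likely one in groups this small. Nothing is therefore read about any role.

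The genes with a DMR were chosen for having one, so their numbers of fragments are given as a description. Over the 41 genes the number ran from 1 to 21 with a median of 5 and a total of 234. Cldn22 had the lowest number, 1, Cldn4 had 7 and Tjp3, counted at the TSS with the most fragments, had 10. Afdn, which encodes the plaque protein afadin, had 21 fragments and no DMR.

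**Figure D5:**
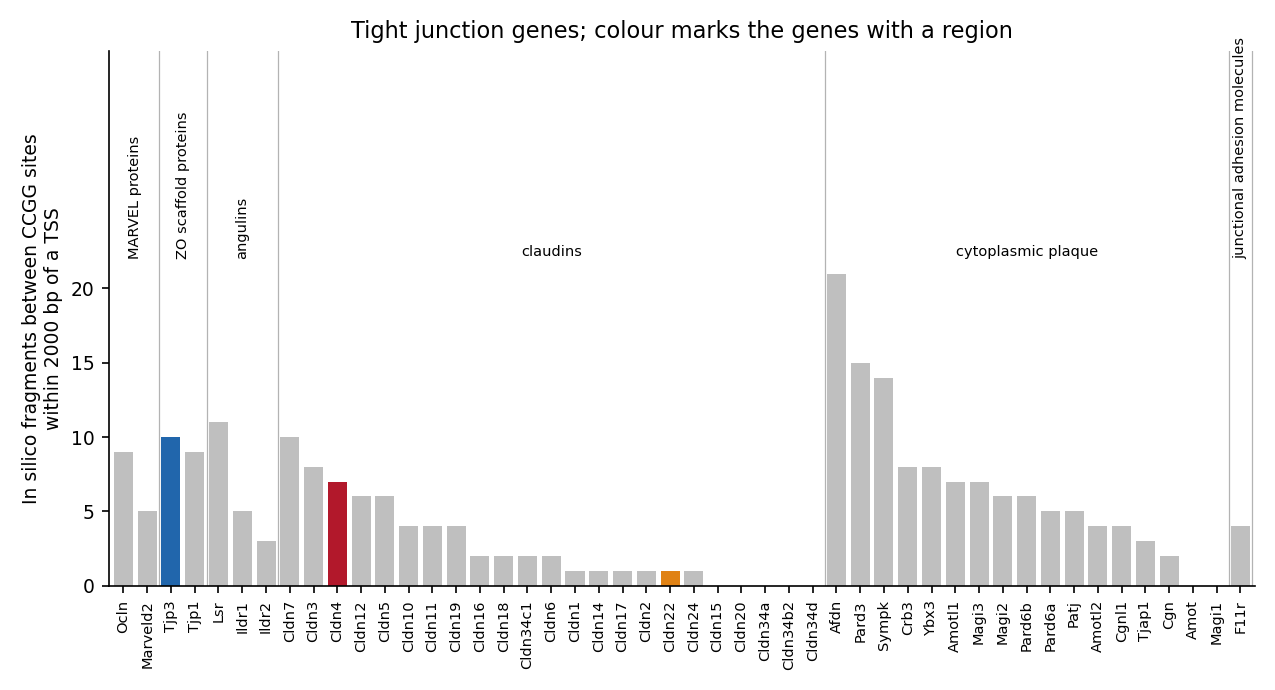
In silico fragments of 40 to 220 bp with 3 or more CpG sites within 2000 bp of a TSS for each gene of the tight junction list with a promoter window in the reference table, grouped by role. Coloured bars are the genes with a DMR (Tjp3 with 10 fragments, Cldn4 with 7 and Cldn22 with 1), and grey bars have none, up to 21 fragments at Afdn.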

How the data were processed

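RRBS was done on sperm DNA of 5 control and 5 arsenic F1 mice. Per the study's methods, the authors used Trim Galore for trimming, Bismark for mapping to mm10, methylKit for DMCs and eDMR for DMRs. Use of bedtools 2.25.0 is given in the submitters' processing notes. The briefly sonicated DNA was digested, so real fragments can differ from those computed. The deposited table gives per DMR a methylation difference in percent points, counts of CpGs and DMCs and a TSS distance, pooled over mice. Per the study's methods, the authors kept cytosines covered at least 10 times in every sample. The coverage of single cytosines was not analysed here, so no interval of a difference was given, and DMRs with few CpGs rest on fewer cytosines.

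Rows were reduced to distinct regions. Starts count from 0 in the table and from 1 here. Of 451 transcript accessions, 446 were found in RefSeq. Sequence, CCGG fragments, 30-base copies and annotation came from GRCm38 (RefSeq, with GENCODE where named). The interval of the share of negative regions is Clopper-Pearson at 95% and covers the counting of regions only. The calculations were tested on simulated data. Tools were scipy 1.17.1, pandas 2.3.3, matplotlib 3.10.9, numba 0.67.0 and numpy 2.4.6, under Python 3.11.15. Genes named are the 3 members, list genes, their neighbours in position and size, and regions at the window's border. Members and lists were chosen with earlier results of these data known. Alternatives were other windows, thresholds, units and strands.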

Additional observations from a re-analysis of the deposited data

How the results depend on the processing

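The share of other near-TSS regions with a smaller size was 96.7% for Cldn4, 73.3% for Cldn22 and 90% for Tjp3. With 2 or more DMCs required of the compared regions it became 100% for both Cldn4, which itself holds only 1 DMC, and Tjp3, where 13 and 12 regions were left to compare. Under the other windows, thresholds and units it ran from 87.1% to 97.0% for Cldn4 and from 81.2% to 91.3% for Tjp3, and for Cldn22 under all of them from 66.7% to 76.9%. The share of negative regions was 25.8% (95% interval 11.9% to 44.6%) and ran from 15.4% to 28.6%. The count of 3 tight junction genes with a DMR became 2 within 1000 bp, which leaves out Tjp3, and 2 when the region had to overlap the gene body, which leaves out Cldn4. Promoters with GGGCGG numbered 1 on both strands and 0 on the gene's strand alone. Widening the regions by 100 bp lowered the density at Cldn22 from 5.15 to 2.36 CpG sites per 100 bp. Of the values under alternatives, 48 stayed within the interval of the main value or, for counts and reference sequence, within 1.5 times of it. The 4 that did not are the 100% at Cldn4, the 100% at Tjp3, the 2.36 at Cldn22 and the 0 for GGGCGG. The alternatives reuse members chosen by being listed and by size, and wider windows cannot lower the count of 3. The number 48 is therefore no measure of how stable the results are.

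No paired analysis was possible because the table holds no values per mouse, although 3 numbers in the sample titles occur in both groups. The replicate block, the fits leaving out each replicate and the planned protein comparison were not run. The coverage behind each difference was not analysed here.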
